A study of Mus musculus with 6 samples.

Results

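Small nucleolar RNA (snoRNA) host genes are described here in natural killer (NK) cells, lymphocytes of the innate immune system that kill virus-infected and tumour cells. The genes were 7 rows of the deposited count table, chosen by symbol: Gas5, Snhg1, Snhg3, Snhg5, Snhg6, Snhg8 and Snhg12, of 50686 genes in all. Each symbol had 1 row. The table types Snhg6 and Snhg12 as lincRNA and the other 5 as processed_transcript.

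The libraries were bulk RNA sequencing of NK cells sorted from C57BL/6J mouse spleen as NK1.1+TCRb-, after B cells had been depleted and cells enriched on CD49b beads. The WT group, 3 libraries, came from healthy mice labelled wild type. The Eumyc group, 3 libraries, came from mice taken at day 14 after intravenous inoculation with Eumyc lymphoma, a B cell tumour driven by a Myc transgene under an immunoglobulin enhancer. The tumour carried the transgene and the NK cells belonged to the host. In Eumyc both the bead-bound and the unbound cells went to the sort, so this handling step and the lymphoma cannot be told apart in any difference given here. Age, sex and whether each sample of a group was a separate animal: not given in the sources used here. The p-values therefore measure the spread between these samples, which may be technical.

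A snoRNA host gene is transcribed and spliced like a messenger RNA, but its introns hold the snoRNAs, which are trimmed out of the excised introns. Box C/D snoRNAs direct 2′-O-methylation and box H/ACA snoRNAs direct pseudouridylation of ribosomal RNA. The spliced host RNA is exported, bound by ribosomes and removed by nonsense-mediated decay, so its level depends on translation as well as on transcription. Many hosts begin with a 5′ terminal oligopyrimidine (TOP) tract, as ribosomal protein messages do. Gas5, growth arrest-specific 5, was named for its accumulation in arrested cells and is the best studied of the group.

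The snoRNAs inside the hosts are shown first because they are the products these genes are known for, and because their own rows in the table, unlike those of the hosts, hold almost no counts. The table has 29 rows of type snoRNA inside the 7 genes, all on the host's strand: 10 in Gas5, 8 in Snhg1, 5 in Snhg12, 2 each in Snhg3 and Snhg5 and 1 each in Snhg6 and Snhg8. Snord80 in Gas5 and Snora16a in Snhg12 each have 2 overlapping rows, so the 29 rows hold 27 distinct symbols. All counts given here are of rows. In the transcripts of GENCODE M21, which is on GRCm38 as the deposited table is, all 29 had a sequence. Of these, 18 held the letters TGATGA (box C) within 20 bases of the 5′ end and CTGA (box D) within 20 bases of the 3′ end, 6 rows named Snora ended with ACA within their last 8 bases, and 5 met neither rule. The searches read the RNA strand alone, and a match of letters is a description. At least 1 snoRNA is given for each of 6 hosts, 5′ to 3′, with boxes C and D or ACA in capitals.
Snord47 (in Gas5): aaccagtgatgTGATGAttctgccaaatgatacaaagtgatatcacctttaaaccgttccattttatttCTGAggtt
Gm25855 (in Snhg1): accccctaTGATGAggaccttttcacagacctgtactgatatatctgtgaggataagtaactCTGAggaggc
Snord50a (in Snhg5): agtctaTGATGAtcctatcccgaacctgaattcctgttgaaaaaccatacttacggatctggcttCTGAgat
Snord50b (in Snhg5): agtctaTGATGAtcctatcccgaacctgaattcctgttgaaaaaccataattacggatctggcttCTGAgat
Snord87 (in Snhg6): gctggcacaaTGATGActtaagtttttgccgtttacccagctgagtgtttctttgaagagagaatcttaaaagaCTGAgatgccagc
Snord99 (in Snhg12): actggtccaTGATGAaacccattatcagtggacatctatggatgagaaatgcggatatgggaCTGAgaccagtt
Snora24 (in Snhg8): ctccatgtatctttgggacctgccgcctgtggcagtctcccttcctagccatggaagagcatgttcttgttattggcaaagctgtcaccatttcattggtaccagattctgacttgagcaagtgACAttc
Both Snord50 copies are 72 bases long and differ at 1 position, C50A, counted from the 5′ end with the Snord50a base first.

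Start sites are shown because a pyrimidine tract there is what places a transcript among the TOP class. RefSeq promoters (GRCm38.p6, 250 bases before to 50 after each start) matched 6 of the 7 genes, with 2 starts for Gas5. Each line gives 30 bases before and 30 from the annotated first base onward, 5′ to 3′ on the gene's strand, with the longest run of C or T that lies in or reaches into the 10 bases either side of the start in capitals.
Gas5 (chr1:161035136-161035195, plus strand): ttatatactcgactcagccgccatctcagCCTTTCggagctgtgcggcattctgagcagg
Snhg1 (chr19:8723457-8723516, plus strand): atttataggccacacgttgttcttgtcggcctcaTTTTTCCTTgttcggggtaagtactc
Snhg5 (chr9:88522868-88522927, minus strand): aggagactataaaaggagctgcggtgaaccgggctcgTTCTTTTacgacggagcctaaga
Snhg8 (chr3:123508307-123508366, minus strand): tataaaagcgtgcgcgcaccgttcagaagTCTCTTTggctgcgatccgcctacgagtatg
Snhg12 (chr4:132308648-132308707, plus strand): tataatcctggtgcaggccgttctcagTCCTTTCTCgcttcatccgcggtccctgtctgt
Runs of 6 to 9 letters lay over or near these 5 starts. They covered the annotated first base in Gas5, Snhg8 and Snhg12. In Snhg1 and Snhg5 they began downstream of it, at bases 5 and 8, and the run over it was 4 and 0 letters. A run of at least 6, over or near the start, was found for 29.97% of the 32851 promoters of the table. The other Gas5 start, upstream, had a run of 3 and Snhg3 one of 5. The E-box letters CACGTG, which read the same on both strands and are the core sequence bound by MYC and MAX, were in 0 of the 7 host promoters and in 7.15% of all promoters. A window without those letters says nothing further about the factor.

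The libraries held 16407611 to 36534191 gene counts in WT and 44456157 to 66615602 in Eumyc, so every Eumyc library was the deeper. Summed over 8 NK markers, the level was 11997 to 12475 CPM (a gene's counts relative to the scaled library total) in WT and 10601 to 11932 CPM in Eumyc. Markers of other cells were mostly higher in Eumyc, with 5 of 6 tested B cell, 3 of 7 T cell, 5 of 7 monocyte and macrophage, 5 of 5 neutrophil, 5 of 6 erythroid and 3 of 5 dendritic cell markers called, and 5 of 8 NK markers were lower. The 7 B cell markers summed to 3.50 to 5.03 against 12.8 to 16.5 CPM, 7 T cell markers to 44.0 to 52.5 against 126 to 159 CPM, and 7 monocyte and macrophage markers to 86.5 to 95.1 against 330 to 765 CPM. Most of the T cell sum in Eumyc was Cd3d (means of 17.0 and 55.2 CPM) and Cd3g (14.9 and 64.8 CPM). Cd3e, at 10.7 and 9.26 CPM, did not pass, nor did Cd4, Cd8a and Cd5. The 6 neutrophil markers summed to 0.162 to 3.23 and 37.6 to 47.2 CPM and the 6 erythroid markers to 11.0 to 30.8 and 48.0 to 55.3 CPM, with the neutrophil gene Ly6g at 0 in WT. The 5 dendritic markers stood at 9.25 to 12.4 and 7.90 to 12.7 CPM, with Siglech at 0 in WT. Zbtb46 made most of that sum, at means of 10.2 and 8.48 CPM, and did not pass. The 3 called had low means in both groups: Flt3 0.0320 and 0.893, Siglech 0 and 0.419, and Xcr1 0.170 and 0.661 CPM. The part of these other cells in the host gene levels was not tested. The 17 cell division genes summed to 414, 387 and 891 CPM in WT 1, 2 and 3 and to 2675, 2696 and 3700 CPM in Eumyc 1, 2 and 3, so WT 3, also the shallowest library, stood apart within its group. In bulk RNA, fewer cells of a type and less RNA per cell cannot be told apart.

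The question was how the host gene counts, over all exon models, differed between NK cells of lymphoma-bearing and healthy mice. Snhg8 fell to about 0.681 times its WT level. Gas5, Snhg1, Snhg5, Snhg6 and Snhg12 did not pass the test, and Snhg3 was nearly uncounted and could not be tested. With edgeR's quasi-likelihood test and a Benjamini-Hochberg adjusted p under 0.05, 1 of the 6 tested host genes was called, where 48.8% of the 15458 tested genes were. None of the 6 passed as higher (25.7% of all genes did). An unadjusted edgeR p under 0.05 was found for 2 of 6, both lower in Eumyc, and for at least 48.8% of all tested genes in either direction. DESeq2 and limma-voom also called 0 higher and 1 lower. The median log2 fold change of the 6 was 0.10, and -0.00 over all tested genes; the medians of the absolute values were 0.18 and 0.37.

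**Figure D1:**
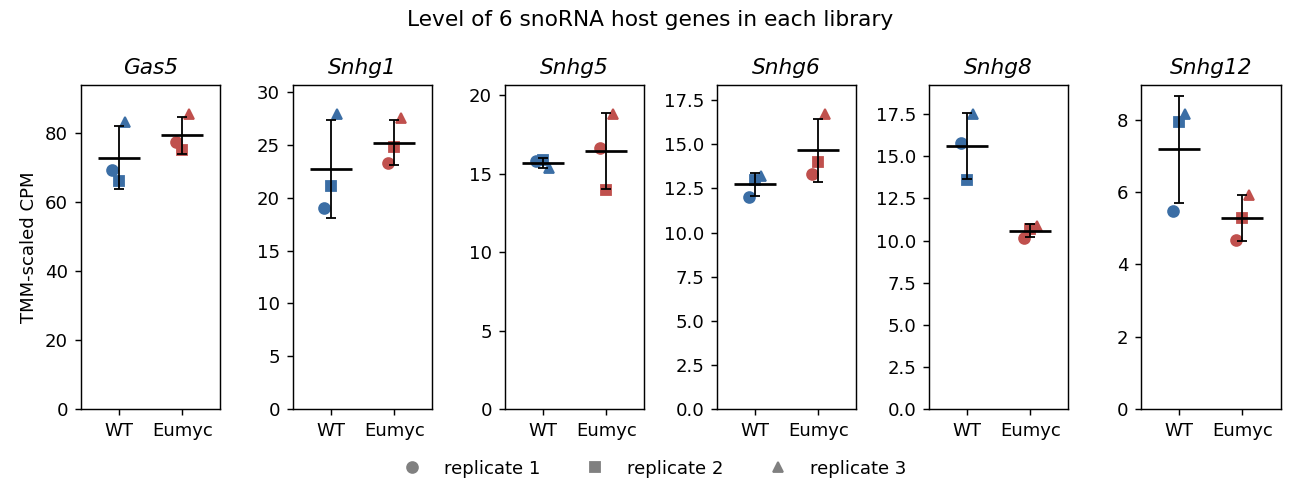
TMM-scaled CPM (vertical axes from 0, one scale per gene) of the 6 tested snoRNA host genes in the 3 WT (blue) and 3 Eumyc (red) libraries; symbols mark the replicate, and black bars the group mean and SD. The Snhg8 points of Eumyc, 10.2 to 10.9 CPM, all lie under those of WT, 13.6 to 17.5 CPM.

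Gas5 (ENSMUSG00000053332, GRCm38 chromosome 1, 161034422 to 161038539, plus strand) was the most abundant of them. Its TMM-scaled level was 69.4, 66.0 and 83.3 CPM in WT 1, 2 and 3 and 77.5, 75.3 and 85.4 CPM in Eumyc 1, 2 and 3. The groups overlapped, with WT 3 above Eumyc 1 and 2. The means were 72.9 ± 9.15 and 79.4 ± 5.35 CPM (SD, n = 3 each), with a log2 fold change of 0.13 ± 0.10 (SE, edgeR adjusted p = 0.299) and a 95% interval of 0.939 to 1.27 in fold. Without WT 3 the log2 fold change was 0.24 and passed (edgeR adjusted p = 0.0346). WT 3 was the WT library with the most cell division transcripts, and the part of that in the Gas5 value was not tested.

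Snhg1 (ENSMUSG00000108414, chromosome 19, 8723475 to 8726443, plus strand), which carries a large set of box C/D snoRNAs, was, like Gas5, highest within WT in WT 3. It stood at 19.0, 21.1 and 27.9 CPM in WT and 23.3, 24.8 and 27.6 CPM in Eumyc, with WT 3 the highest of the 6 libraries. The means of 22.7 ± 4.63 and 25.2 ± 2.16 CPM (SD, n = 3 each) gave a log2 fold change of 0.16 ± 0.14 (SE, edgeR adjusted p = 0.381; fold interval 0.890 to 1.40). It passed without WT 3, at 0.34 (edgeR adjusted p = 0.0339). Among the 14 alternatives run, no host gene passed as higher in any that kept WT 3.

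Snhg5 (ENSMUSG00000097195, chromosome 9, 88521050 to 88522929, minus strand), host of the Snord50 pair printed above, differed little. The WT libraries were close together at 15.8, 15.9 and 15.3 CPM, and the Eumyc libraries at 16.6, 13.9 and 18.8 CPM lay on both sides of them. Its log2 fold change was 0.07 ± 0.12 (SE, edgeR adjusted p = 0.668; fold interval 0.862 to 1.28). Snhg6 (ENSMUSG00000098234, chromosome 1, 9941959 to 9944118, minus strand), host of Snord87, was at 12.0, 13.0 and 13.2 CPM in WT and 13.3, 14.0 and 16.7 CPM in Eumyc. All 3 Eumyc values of Snhg6 exceeded all WT values, by a narrow margin, and the gene did not pass (log2 fold change 0.20 ± 0.12 SE, edgeR adjusted p = 0.187; fold interval 0.954 to 1.39). Groups without overlap were seen for 2 of the 6, Snhg6 and Snhg8, and for 60.2% of all tested genes (higher in Eumyc for 31.3% and lower for 28.9%).

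Snhg8 (ENSMUSG00000104960, chromosome 3, 123507552 to 123508404, minus strand), a short gene that hosts the H/ACA snoRNA Snora24, was the only one of the 6 that passed with all libraries. It was at 15.8, 13.6 and 17.5 CPM in WT and 10.2, 10.7 and 10.9 CPM in Eumyc. The Eumyc libraries were tightly grouped and all below the lowest WT library. The means were 15.6 ± 1.96 and 10.6 ± 0.373 CPM (SD, n = 3 each), a log2 fold change of -0.55 ± 0.12 (SE, edgeR adjusted p = 0.00586; fold interval 0.563 to 0.824). The call held in all 14 alternatives run, at log2 fold changes of -0.64 to -0.46. A lower call was made for 23.1% of all tested genes, and among 702 tested lincRNA and processed_transcript genes 209 were lower and 59 higher, so more noncoding genes fell than rose.

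Relative to Gas5 in the same library, a ratio that no scaling of libraries can alter, Snhg8 was at 22.7, 20.6 and 20.99% in WT 1, 2 and 3. The same ratio was 13.1, 14.2 and 12.7% in Eumyc 1, 2 and 3. The ratio therefore separated the groups also for WT 3, the library in which both genes were highest within WT. A ratio of 2 genes shows unequal change and not which of them changed.

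Snhg12 (ENSMUSG00000086290, chromosome 4, 132308678 to 132311024, plus strand), host of Snord99 and of several H/ACA snoRNAs, was the lowest of the tested 6 at 136 to 394 counts a library. It was at 5.48, 7.92 and 8.14 CPM in WT and 4.66, 5.29 and 5.93 CPM in Eumyc. WT 1 lay among the Eumyc values and WT 2 and 3 above them. The log2 fold change of -0.43 ± 0.19 (SE) missed the threshold (edgeR adjusted p = 0.0854; fold interval 0.550 to 0.996), and it passed without WT 1 at -0.59 (edgeR adjusted p = 0.0319). Snhg12 and Snhg6 were the hosts found in the authors' deposited table of their own comparison, with log2 fold changes of -0.41 and 0.19 and adjusted p-values of 0.0828 and 0.243 there. The other 5 are of type processed_transcript, and the authors' deposited table holds 0 genes of that type although 99 of them reach 3 CPM in some library.

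Snhg3 (ENSMUSG00000085241, chromosome 4, 132348014 to 132353686, minus strand), known as the host of the H/ACA snoRNAs Snora73a and Snora73b, was nearly empty. It had 0 counts in each WT library and 4, 1 and 0 counts in Eumyc 1, 2 and 3, too few for the filter. A count of 0 over the 3 WT libraries allows up to 0.0373 CPM (3 counts of the total), and the 5 Eumyc counts make 0.0283 CPM (95% Poisson interval 0.00920 to 0.0661 CPM, counting error only), so no difference was detectable at this depth. In GENCODE M21, 86.3% of the Snhg3 exon bases are shared with exons of other genes, 29.8% on the same strand. Of those bases 705 lie in exons of Gm17300 on the other strand and 135 in exons of Rcc1 on the same strand. A read that overlaps exons of several genes is commonly left uncounted in gene counting. Counting mode and strand setting: not given in the sources used here. Whether reads of Snhg3 were lost in this way was not tested. For the other 6 hosts the share with other genes' exons on either strand was 8.32 to 20.9%, snoRNA rows inside them included.

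**Figure D2:**
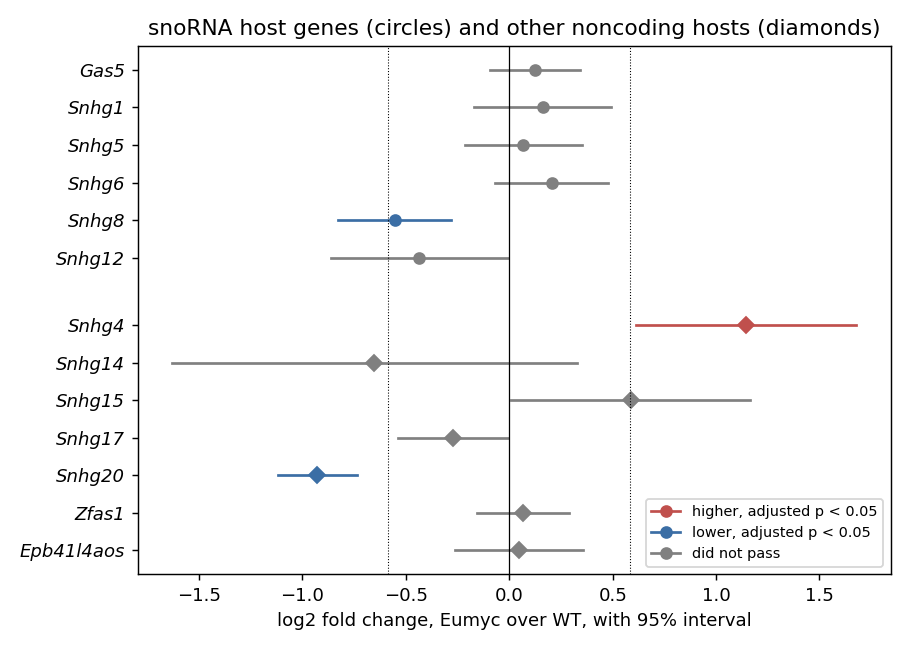
Log2 fold change of Eumyc over WT (horizontal axis) with its 95% interval for the 6 tested snoRNA host genes (circles) and 7 other tested noncoding hosts (diamonds); dotted lines mark 1.5-fold either way, and colour marks the edgeR call. For Gas5, Snhg1, Snhg5 and Snhg6 the interval lies inside the dotted lines, and Snhg8 lies wholly to the left of 0.

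The precision was enough to bound several of the differences that did not pass. The 95% intervals of Gas5, Snhg1, Snhg5 and Snhg6, 4 of the 6, lay within 1.5-fold in both directions. Those of Snhg8 and Snhg12 reached past a 1.5-fold decrease.

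Levels of different genes can be compared per length. With the exon length of every GENCODE M21 model of a gene, Gas5 (19.4 ± 2.43 CPM per kb) and Snhg8 (18.3 ± 2.30) led in WT and did not differ beyond their spread. Snhg6 (11.1 ± 0.564), Snhg5 (9.06 ± 0.174), Snhg1 (7.64 ± 1.56) and Snhg12 (2.99 ± 0.615 CPM per kb, SD, n = 3) followed, with Snhg5 and Snhg1 within their spread of each other. In Eumyc the order was Gas5 (21.1 ± 1.42), Snhg6 (12.8 ± 1.57), Snhg8 (12.4 ± 0.438), Snhg5 (9.51 ± 1.40), Snhg1 (8.50 ± 0.729) and Snhg12 (2.20 ± 0.264 CPM per kb), with Snhg6 and Snhg8 inseparable and Snhg5 and Snhg1 likewise. The order depends on the models used for the length, since models with retained introns lengthen Gas5 from 851 to 3760 bases and Snhg1 from 865 to 2969. With the same counts over the length without these models, Gas5 was at 85.7, Snhg1 at 26.2 and Snhg8 at 25.9 CPM per kb in WT. Snhg5 was at 15.0, Snhg6 at 11.1 and Snhg12 at 2.99 CPM per kb. Gas5 and Snhg12 kept the ends of the order and Snhg1 moved up. Only the length was changed, and any counts on retained introns stayed in these values.

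Within WT, 5 of the 6 tested hosts had their WT 3 value above the WT 1 and 2 mean, by 0.08 (Snhg6) to 0.48 (Snhg1) log2 units, and Snhg5 was at -0.05. Over all tested genes the median of this difference was 0.00. Summed over the 7 genes the level was 138, 137 and 165 CPM in WT and 146, 144 and 165 CPM in Eumyc 1, 2 and 3. Library 3 of each group was thus the highest and the groups overlapped. The replicate numbers are separate samples in the labels, and these sums carry no test.

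Across the 6 libraries the genes whose log2 CPM followed the mean of the tested hosts most closely were Wdr86 (Pearson r = 0.991), Trmt1 (0.976), 5730409E04Rik (0.964), Dnajc19 (0.964) and Sfmbt2 (0.962). These are descriptions over 6 libraries whose depth goes with their group split, and the 5 are the highest of all tested genes. None of the 5 passed the test between groups, with edgeR adjusted p-values of 0.513 to 0.847. Trmt1 encodes a tRNA methyltransferase and Dnajc19 a chaperone-like protein of the mitochondrial inner membrane.

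The snoRNA rows themselves were almost empty. Of the 29 rows inside the hosts, 28 had 0 counts in all 6 libraries. The exception was Snord87 in Snhg6 (chromosome 1, 9942463 to 9942549, 87 bases), with 0 counts in each WT library and 4, 5 and 6 in Eumyc. Its 15 Eumyc counts make 0.0850 CPM (95% Poisson interval 0.0476 to 0.140 CPM). The same interval for the 0 counts in WT reaches up to 0.0458 CPM, close to the lower limit in Eumyc. Both intervals are for counting error only.

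The position of these rows in the annotation is part of what was measured. In GENCODE M21, 26 of the 29 rows lie wholly inside exons of their host, of which 21 do so only through models with a retained intron and the 5 in Snhg12 without them. Snora73a overlaps host exons over 77.6% of its length. The 2 rows outside host exons were Snord87, which had counts, and Snora73b, which had none. Over the whole table, counts were found for 10.3% of the 214 snoRNA rows that overlap another gene's exon on their strand and for 17.0% of the other 1294. Whether reads on the snoRNAs were lost as shared with the host was not tested, and a standard library holds few RNAs of this length. These rows therefore give no measure of mature snoRNA.

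Other noncoding hosts differed among themselves. Of 14 further names on the list, 12 were in the table and 7 could be tested; 1 rose, 1 fell and 5 did not pass, with a median log2 fold change of 0.05 and 28.6% called, beside 48.8% of all tested genes. Snhg20 fell from 32.0 ± 1.94 to 16.8 ± 0.336 CPM (SD, n = 3 each; log2 fold change -0.93 ± 0.08 SE, edgeR adjusted p = 0.000194), with Eumyc libraries at 16.5 to 17.2 CPM and WT libraries at 30.4 to 34.1 CPM. Snhg4, named after its value was seen, increased from a WT mean of 2.17 ± 0.661 CPM to 4.69 ± 0.504 CPM (a log2 fold change of 1.15, SE 0.23, edgeR adjusted p = 0.00436). Zfas1, a host with a TOP tract like Gas5, had group means of 22.0 ± 1.23 and 23.1 ± 2.11 CPM without passing (adjusted p = 0.595). Snhg15 did not pass at 0.59 (edgeR adjusted p = 0.0851) but did with DESeq2 (0.0451), limma-voom (0.0276), no filter (0.0465), the replicate block (0.0243) and without WT 3 (0.88, adjusted p = 0.0118). By position alone, 18 genes of a noncoding type in the table, outside the 7, that hold a snoRNA row on their strand were tested. Among them were Zfas1, Snhg14, Snhg15, Snhg17 and Epb41l4aos of the list just given. Cct6a (typed processed_transcript) and Gm11775 (typed antisense), named after their values were seen, rose and none fell. The types were taken as deposited, and whether Cct6a is noncoding was not tested.

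Protein-coding snoRNA hosts were called at a rate near that of all genes, but far more of them rose than fell. Of 255 protein-coding genes that hold a snoRNA row on their strand, 205 were tested, 92 rose, 17 fell and 96 did not pass, with a median of 0.21. Over all tested genes 25.7% rose and 23.1% fell. The share called was 53.2%, beside 48.8% of all tested genes, and was not tested against the noncoding hosts. The count that fell was 9, 11 and 10 without WT 2, Eumyc 1 and Eumyc 3. The 3 largest increases were those of Cep55 (3.76 ± 0.50), a protein of cell abscission, Top2a (3.33 ± 0.51), the topoisomerase of dividing cells, and March1 (2.40 ± 0.30), a ubiquitin ligase of antigen-presenting cells. The largest decreases were those of Dirc2 (-0.94 ± 0.14), Prpf39 (-0.75 ± 0.06), a splicing factor, and Maged2 (-0.69 ± 0.11, log2 fold changes with SE). This list is made by position and includes predicted snoRNA rows that may not be processed from their host.

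Messages of the proteins that assemble with snoRNAs are given in 3 lists, beside 25.7% of all tested genes that rose. Of 5 box C/D genes 4 rose and 1 did not pass (median log2 fold change 0.35): Nop58, a core protein, rose from 57.5 ± 13.9 to 97.4 ± 8.15 CPM, the methyltransferase gene Fbl from 29.6 ± 7.81 to 48.5 ± 4.78 CPM and Snu13, which binds the box C/D fold, from 42.7 ± 1.36 to 54.3 ± 2.62 CPM. Of 6 box H/ACA genes 5 rose and 1 did not pass (median 0.47). Nhp2, an RNA-binding subunit, rose by 0.98 ± 0.14, and Dkc1, the pseudouridine synthase, by 0.45 ± 0.09. Gar1, another subunit, rose by 0.48 ± 0.16 (edgeR adjusted p = 0.0321) and lost its call on leaving out WT 1, WT 2, Eumyc 2 or Eumyc 3 (largest adjusted p = 0.112). The count of H/ACA genes that rose was 3 without WT 1, WT 2 or Eumyc 3. Among 11 tested assembly factors 5 rose, none fell and 6 did not pass. The largest increases were those of the chaperone gene Hsp90ab1 (0.57 ± 0.10), the AAA ATPase gene Ruvbl2 (0.53 ± 0.08) and Nolc1 (0.49 ± 0.11), a nucleolar and coiled body phosphoprotein.

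**Figure D3:**
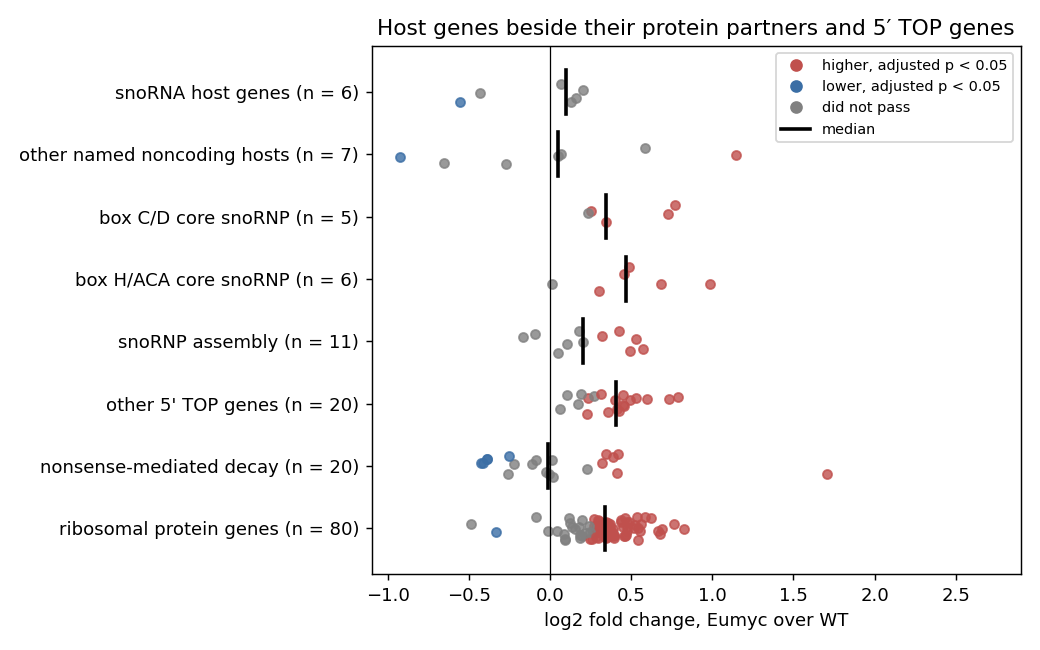
Log2 fold change of Eumyc over WT (horizontal axis) of each tested gene, 1 point per gene, in the snoRNA host genes and 7 comparison lists; black bars are medians and colour marks the edgeR call. The host genes' median is 0.10, those of the box C/D and H/ACA proteins are 0.35 and 0.47.

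Summed over the 7 host genes and divided by the summed box C/D protein genes of the same library, the ratio of levels was 0.550, 0.601 and 0.566 in WT 1, 2 and 3. It was 0.427, 0.426 and 0.441 in Eumyc 1, 2 and 3, under all WT values. The means were 0.572 ± 0.0262 and 0.432 ± 0.00836 (SD, n = 3 each), given as a description with no test. WT 3 did not stand apart in this ratio. The summed host level was 147 ± 16.1 CPM in WT and 152 ± 11.8 CPM in Eumyc, and the summed box C/D level 257 ± 32.5 and 351 ± 20.4 CPM. The lower ratio in Eumyc thus went with a higher box C/D sum and not with a lower host sum.

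**Figure D4:**
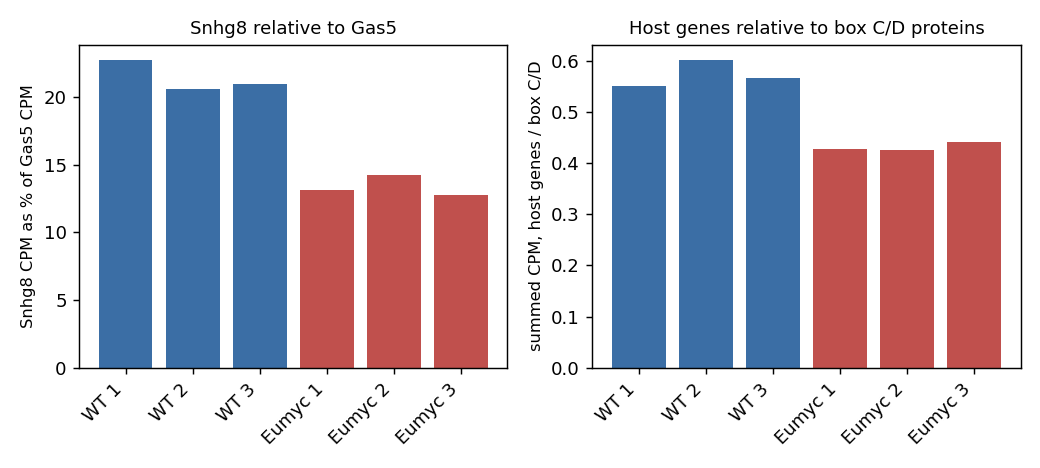
Left, the level of Snhg8 as a percentage of that of Gas5; right, the summed level of the 7 host genes over that of 5 box C/D protein genes, for each library (bars, WT blue and Eumyc red, axes from 0). All Eumyc bars are lower than all WT bars in both panels, 12.7 to 14.2% against 20.6 to 22.7% on the left.

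Most coding genes of the TOP class rose. Over all tested genes 25.7% rose and 23.1% fell. Of 20 tested nonribosomal TOP genes 15 rose and none fell, with a median log2 fold change of 0.41. Nap1l1, a histone chaperone, rose by 0.79 ± 0.13, Npm1, a nucleolar protein, by 0.73 ± 0.11, and Naca, which binds nascent chains, by 0.60 ± 0.09. Of 80 tested ribosomal protein genes 59 rose and 1 fell (median 0.34), and 35 and 33 rose without WT 1 and WT 2. The 1 that fell did not pass without WT 2, WT 3, Eumyc 1 or Eumyc 2, nor with no filter. Whether host and coding TOP genes differ in response was not tested.

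Regulators of TOP messages and of growth moved in both directions, 4 of 14 higher and 4 lower. The share called was 57.1%, beside 48.8% of all tested genes (25.7% higher and 23.1% lower), so the split was near that of all genes. Myc rose by 0.75 ± 0.12 and Larp1, which binds the cap of TOP messages, by 0.52 ± 0.08 (log2 fold changes with SE). Eif4ebp1, a repressor of cap-dependent translation, rose by 0.53 ± 0.11. The 4 that fell, named after their values were seen, were Tsc1 (-0.51 ± 0.07) and Tsc2 (-0.30 ± 0.08), whose products form a complex that restrains mTORC1, Akt1s1 (-0.42 ± 0.09), an mTORC1 inhibitor, and Eif4ebp2 (-0.21 ± 0.05), a relative of Eif4ebp1.

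Genes of nonsense-mediated decay, the route that removes spliced host RNA, were also split, with 6 of 20 higher, 5 lower and 9 that did not pass (median -0.02). With 55.0% called, beside 48.8% of all tested genes (25.7% higher and 23.1% lower), this split too was near that of all genes. Upf1, the central helicase, had means of 384 ± 14.3 CPM in WT and 377 ± 5.41 CPM in Eumyc without passing (edgeR adjusted p = 0.733), and was named after its value was seen. Magohb, an exon junction protein, rose by 1.71 ± 0.10 and Ncbp1, a cap-binding protein, by 0.42 ± 0.05. Upf3b, which links the exon junction to UPF2, fell by 0.43 (SE 0.07). All 17 cell division genes rose, and Ube2c, Ccnb1 and Ccna2 had the largest log2 fold changes, 4.84 ± 0.39, 4.69 ± 0.40 and 4.04 ± 0.55.

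Genes beside the hosts are given with their own values. The start of Slc3a2, an amino acid transporter subunit, lies 106 bases from that of Snhg1 on the other strand, and Slc3a2 fell by 0.19 (SE 0.06, edgeR adjusted p = 0.0344), while Snhg1 did not pass at 0.16. That call was lost without WT 1, WT 2, Eumyc 1 or Eumyc 2 and with no filter (adjusted p = 0.0984 to 0.151). Zbtb37, which overlaps the 5′ end of Gas5 on the other strand with its start 427 bases away, fell from 70.8 ± 13.8 to 47.3 ± 10.8 CPM (edgeR adjusted p = 0.0274), and lost its call without WT 1, WT 2, Eumyc 1 or Eumyc 3 (adjusted p = 0.0822 to 0.109). Rcc1, a chromatin-bound nucleotide exchange factor whose start lies 81 bases from that of Snhg3, rose by 1.90 ± 0.27 (log2, SE) from 17.0 ± 7.33 to 62.0 ± 10.6 CPM (edgeR adjusted p = 0.000844), a value that shares exon bases with Snhg3.

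The other nearest protein-coding starts were farther off. For Snhg8 it was that of Prss12, 61491 bases away, at 1.44 ± 0.627 and 0.318 ± 0.282 CPM; it passed as lower (edgeR adjusted p = 0.0218) but missed the threshold on leaving out WT 1, WT 2 or Eumyc 1 (0.0527 to 0.0953). For Snhg5 it was that of Zfp949, 25091 bases away, which fell by 0.96 (SE 0.10). The nearest starts to Snhg6 and Snhg12 belonged to Tcf24, which did not pass (adjusted p = 0.201), and Rab42, with 2 counts in all libraries. Mcmdc2, which overlaps Snhg6 on the other strand, had 18 counts in all.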

How the data were processed

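RNA of 3 WT and 3 Eumyc libraries was sequenced after TruSeq library preparation (labels' protocols). The authors deposited whole-number counts per gene; STAR 2.5.2, HTSeq 0.6.1 and DESeq2 1.10.1, with mm10 and GRCm38, are named per the submitters' processing notes. Annotation release, strand setting and read filters: not given in the sources used here. Values of antisense and overlapping genes are uncertain. From the authors' deposited comparison table the log2 fold change and p-value columns were used, and its other columns (standard error, score and mean signal, per the file headers) were not printed.

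Counts were filtered with filterByExpr (minimum count 10), scaled with TMM and tested with edgeR 4.0.16 (R 4.3.3) for the group alone, two-sided, with Benjamini-Hochberg adjustment over 15458 genes and a threshold of 0.05. Levels are TMM-scaled CPM with SD over 3 libraries; 95% intervals come from the fit's standard error and degrees of freedom. The fit was tested on simulated data. Alternatives were DESeq2 1.42.0, limma-voom 3.58.1, 3 other scalings, 2 other filters, a block on the replicate number and fits without each library in turn. Per-length levels use GENCODE M21 exons, and the length without retained introns was chosen after seeing the data, as was the run of 6 pyrimidines. The host genes, the lists and the rule for named genes were chosen with earlier results of these data known. The rule took every host, up to 3 changed genes of at least 10 CPM with the largest change in each list, the 3 highest and lowest changed coding hosts, nearest and overlapping genes, the 5 most alike genes, and Myc and Larp1; of the snoRNA rows, those with counts among the 5 highest.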

Additional observations from a re-analysis of the deposited data

How the results depend on the processing

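Over the 6 tested host genes and 14 alternatives, 79 of 84 values kept their direction and their side of the threshold. Snhg8 did so in all 14 and Snhg6 in all 14. The count of host genes that rose was 0 under each of the 8 alternatives that kept all libraries, and 0 to 2 over the leave-one-out fits, with 2 only without WT 3 (Gas5 and Snhg1). The count that fell was 1 to 2 over the leave-one-out fits, with 2 without WT 1 (Snhg8 and Snhg12). The log2 fold change of Snhg5 ran from -0.0302 (without Eumyc 3, adjusted p = 0.875) to 0.192 (without Eumyc 2) and that of Zfas1 from -0.00321 to 0.131 on leaving out the same libraries, so both turned direction without Eumyc 3. With the replicate block 2 host genes fell, since Snhg12 passed (adjusted p = 0.0421), and the block also moved Snhg17 (-0.28, adjusted p = 0.0230) and Snhg15 (0.63, adjusted p = 0.0243) past the threshold. Deviations of same-numbered libraries correlated at 0.0868, 0.212 and 0.311, and each WT library correlated best with its own number. This is the order that pairs would give, but the first value is under 0.1 and the labels state no pairing. The main fit therefore used the group alone, and whether the numbers are pairs was not tested. The calls of Snhg12, Snhg15 and Snhg17 depend on that choice. Of 252 counts over the other lists 233 stayed within 1.5 times, and of 557 values of other named genes 534 kept direction and side. Snhg12, with 1519 counts in all, and Snhg3, with 5, are the hosts most limited by depth. Removing retained-intron models from the length, with the counts kept as they were, changed the level per kb of Gas5, Snhg1, Snhg5 and Snhg8 beyond the spread between libraries. That change is one of the length alone. The cause of the changes in calls and direction was not tested.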
